A study of Homo sapiens with 17 samples.

Results

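H3K27ac was compared between 2 shRNAs (short hairpin RNAs) against the same gene, HNRNPU, in H1 cells. H1 is an established human embryonic stem cell line, grown here in mTeSR1 medium on Matrigel. Cells received packaged virus with either shHNRNPU#1 or shHNRNPU#2 and transduced cells were kept with puromycin, so each library came from a selected population and not from a clone. The members were chosen by hairpin and antibody: 2 libraries with shHNRNPU#1 and 2 with shHNRNPU#2, 4 of the 17 libraries in the series. The assay was CUT&Tag, in which an antibody on chromatin brings a transposase that cuts and tags the DNA next to it. Beside these, 4 H3K4me1 libraries of the same hairpins and 2 HNRNPU libraries of untransfected cells were used for measures that did not choose any H3K27ac site. Both groups carried a hairpin against HNRNPU. Control libraries with a hairpin against luciferase (shLUC), 2 titled H3K4me1 and 2 titled H3K27ac, were only set beside some sites and gene starts. Their titles and inner peak names give opposite antibodies, as described below.

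HNRNPU, also known as scaffold attachment factor A, is an abundant nuclear protein that binds RNA and chromatin and acts in nuclear organisation and splicing. H3K27ac, acetylation of lysine 27 of histone H3, is laid down by the acetyltransferases CBP and p300 and marks active promoters and active enhancers, and H3K4me1 marks enhancers whether active or not. Hairpins with different sequences against one gene are used to separate what follows from loss of the target from what belongs to one hairpin, which makes the spread between them a background for every knockdown comparison.

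The promoter sequences below belong to 4 genes at which the hairpins were furthest apart or at which the position of the summit differed. RIC1 and ATP6V1G1 are shown because they passed the test of scores at gene starts, LIN28B because the hairpins had their summits on opposite sides of its start, and CCNG1 because the strong summits of each hairpin occupied a separate place beside the same start. Each run holds the 250 bases before a listed start, 5′ to 3′ on the strand of the gene, from the RefSeq table for GRCh38.p14. Capitals mark the GC box (GGGCGG) and the CCAAT box (CCAAT), searched on both strands. Neighbouring GC boxes may overlap, as 2 of them do in ATP6V1G1. Among all 22078 listed promoters of this length, 53.7% held a GC box and 32.8% a CCAAT box.
RIC1: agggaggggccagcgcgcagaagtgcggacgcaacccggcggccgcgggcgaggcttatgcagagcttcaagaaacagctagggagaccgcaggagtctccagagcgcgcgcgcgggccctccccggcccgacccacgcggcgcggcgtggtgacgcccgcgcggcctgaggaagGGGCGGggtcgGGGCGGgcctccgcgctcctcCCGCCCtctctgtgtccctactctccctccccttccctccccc
ATP6V1G1: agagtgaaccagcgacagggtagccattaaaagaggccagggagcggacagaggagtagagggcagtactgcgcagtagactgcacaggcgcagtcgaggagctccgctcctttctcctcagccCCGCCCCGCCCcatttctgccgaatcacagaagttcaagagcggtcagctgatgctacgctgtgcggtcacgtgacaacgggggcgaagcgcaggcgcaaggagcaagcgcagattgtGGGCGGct
LIN28B: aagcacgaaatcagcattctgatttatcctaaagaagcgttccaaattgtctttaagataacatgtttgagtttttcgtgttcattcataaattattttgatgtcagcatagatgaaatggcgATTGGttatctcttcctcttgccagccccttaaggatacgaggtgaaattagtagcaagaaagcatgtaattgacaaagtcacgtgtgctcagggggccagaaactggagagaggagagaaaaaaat
CCNG1: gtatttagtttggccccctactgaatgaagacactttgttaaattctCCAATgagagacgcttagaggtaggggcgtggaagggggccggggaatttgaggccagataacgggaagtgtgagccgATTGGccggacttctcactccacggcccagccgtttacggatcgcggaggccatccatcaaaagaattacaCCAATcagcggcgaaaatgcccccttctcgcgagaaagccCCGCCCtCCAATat
The runs lie at chr9:5628857-5629106, chr9:114587519-114587768, chr6:104956857-104957106 and chr5:163437321-163437570, all on the plus strand. RIC1 and ATP6V1G1 held 3 matches each, all of them GC boxes, LIN28B held 1 CCAAT box, and CCNG1 held 4 CCAAT boxes and 1 GC box. The GC content was 75.2% for RIC1, 61.6% for ATP6V1G1, 38.4% for LIN28B and 54.0% for CCNG1, where the median of all promoters was 62.0%. These letters describe the windows and say nothing of which factor binds there.

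The lists of the 2 hairpins differed in length before any site was compared. Each list gave the summit, the base of highest signal, of every called peak, with a score read as −log10 of its significance. The shHNRNPU#1 lists held 51655 and 40487 summits and the shHNRNPU#2 lists 75264 and 85142. Both shHNRNPU#2 lists were longer than both shHNRNPU#1 lists, by 0.81 on the log2 scale (mean 16.29 ± 0.13 against 15.48 ± 0.25, SD, n = 2 each, two-sided exact permutation p = 0.333). With 2 libraries against 2 this p is the smallest the design allows, so no single value in these comparisons can pass 0.05. In bulk libraries, fewer cells with a mark and less mark per cell cannot be told apart. Read depth is unknown, and list length and hairpin cannot be told apart.

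To bring the lists to one length, the 20000 summits with the highest scores were taken from each. They were 38.7% and 49.4% of the shHNRNPU#1 lists and 26.6% and 23.5% of the shHNRNPU#2 lists. Just inside this limit the score was 6.01 and 4.81 with shHNRNPU#1 and 7.06 and 8.01 with shHNRNPU#2, and just outside it the scores were the same to within 0.01. The limit thus fell at a lower significance in the shHNRNPU#1 libraries. Summits with tied scores at the limit were kept by position, from the lowest chromosome number. These summits are called strong below.

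**Figure D1:**
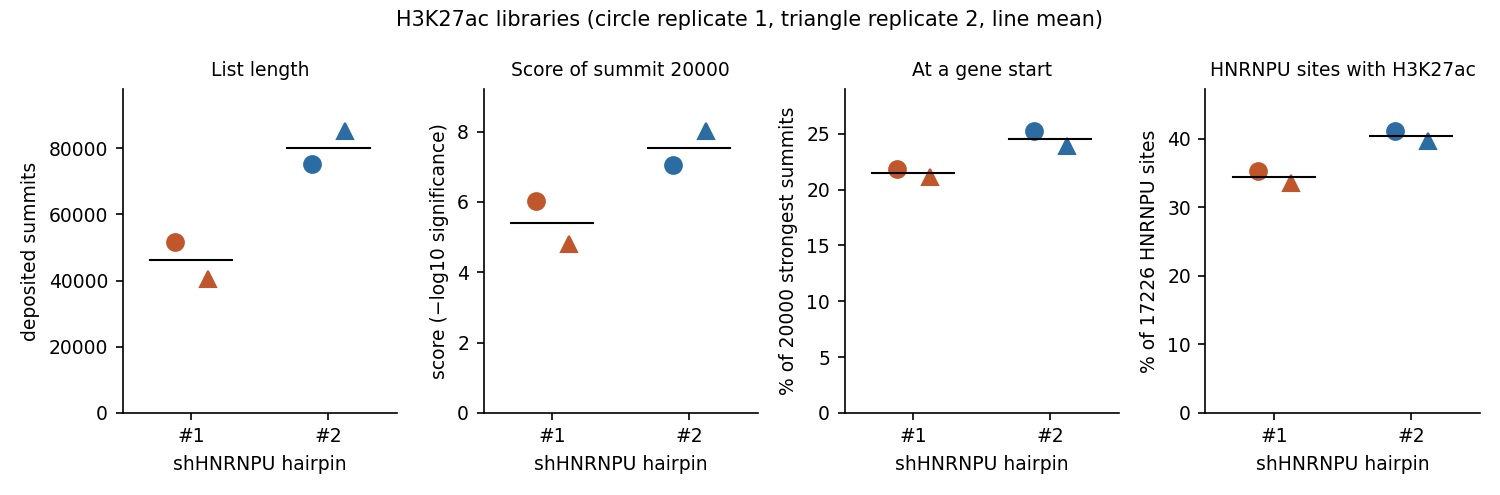
Each point is 1 H3K27ac library and each line the mean of 2, plotted for the number of deposited summits, the score (−log10 significance) at rank 20000, the share of strong summits at a gene start and the share of HNRNPU sites that carried H3K27ac. In all 4 measures both shHNRNPU#2 libraries lie above both shHNRNPU#1 libraries.

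The cell type was checked at gene starts. A gene start was a start listed by RefSeq, or either end of a protein-coding gene where none was listed, and a summit counted for it within 1000 bp. Each library had a summit at 7 of 12 markers of pluripotent stem cells and a strong one at 5 or 6, though not at the same genes, and 4 of the markers (LIN28B, ZFP42, DNMT3B and L1TD1) had one in all 4 libraries. The strongest was at L1TD1, an RNA-binding protein of human pluripotent cells, at ranks 96, 105, 255 and 237 in the order shHNRNPU#1 replicates 1 and 2 and shHNRNPU#2 replicates 1 and 2, an order kept below. NANOG, DPPA4 and SALL4 had no summit at their start in any list. None of 6 neural and none of 6 trophoblast markers had a summit. Of 6 mesendoderm markers, 3 and 1 had a weak summit in the shHNRNPU#2 lists and none in the shHNRNPU#1 lists, and 1 of 7 fibroblast markers, COL1A2, had a weak one in 3 lists.

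The start of HNRNPU itself, a gene that spans 244850297 to 244864543 on chromosome 1, carried H3K27ac in every library. Its highest summit within 1000 bp had the ranks 22494, 5429, 3125 and 15268, so that the hairpins overlapped. In shHNRNPU#1 replicate 1 and shHNRNPU#2 replicate 2 a stronger summit lay in the gene outside this window. These were at 244863341 (score 14.6) and 244863442 (score 10.3). The difference within 1000 bp was 0.22 ± 0.44 (SE) on the normalised log2 score, with an adjusted p of 0.961 by limma. These libraries measure neither HNRNPU transcript nor protein, and how far either hairpin lowered them was not measured here.

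Replicates of one hairpin shared about as many strong summits as libraries of different hairpins. Summits within 250 bp counted as shared. The overlap was 48.4% between the shHNRNPU#1 replicates and 54.6% between the shHNRNPU#2 replicates. Between hairpins it was 49.6% and 50.6% for shHNRNPU#1 replicate 1 and 46.9% and 48.1% for shHNRNPU#1 replicate 2. Thus 2 of the 4 pairs of different hairpins overlapped more than the shHNRNPU#1 replicates did. The mean within hairpins exceeded the mean between them by 2.74 percentage points (51.5% over 2 pairs against 48.8% ± 1.63, SD, over 4 pairs, one-sided exact permutation p = 0.333, the smallest possible). Without shHNRNPU#2 replicate 1 the difference turned to -0.90, and without replicate 2 it was 0.16. Without shHNRNPU#1 replicate 1 or 2 it was 7.15 or 4.54, and over all deposited summits 1.13.

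**Figure D2:**
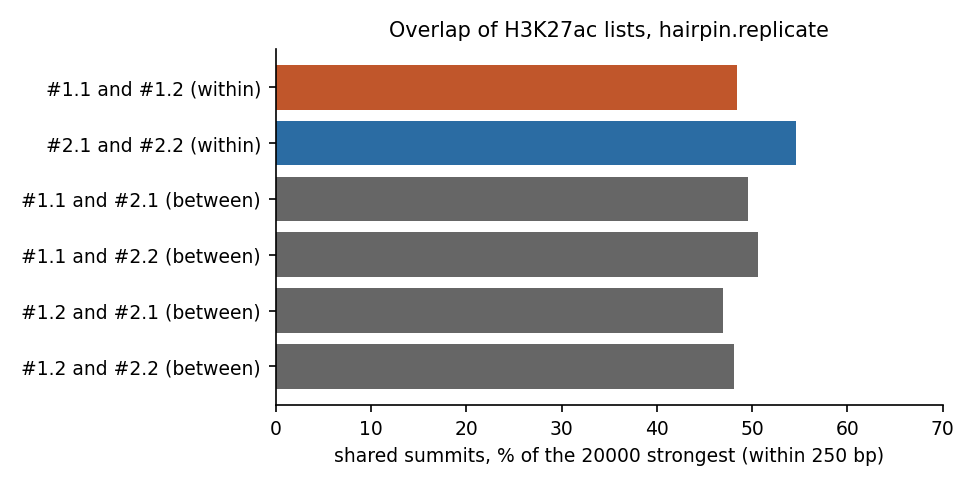
Bars give the share of the 20000 strongest summits that 2 H3K27ac libraries held within 250 bp of each other, with libraries named by hairpin and replicate. The shHNRNPU#2 replicates share most (54.6%), while the shHNRNPU#1 replicates (48.4%) lie among the pairs of different hairpins (46.9% to 50.6%).

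The strong summits of shHNRNPU#2 lay more often at gene starts and less often inside genes. At gene starts lay 21.9% and 21.1% of the shHNRNPU#1 summits and 25.2% and 23.9% of the shHNRNPU#2 summits. The groups did not overlap, and the difference was 3.07 percentage points (21.5% ± 0.54 against 24.6% ± 0.93, SD, n = 2 each, two-sided exact permutation p = 0.333). The share in the rest of the gene was 52.9% and 52.8% with shHNRNPU#1 and 46.4% and 47.5% with shHNRNPU#2, and the intergenic share 25.2% and 26.1% against 28.4% and 28.6%. With the 40000 strongest summits the difference at gene starts was 1.85, and over all deposited summits, where the shHNRNPU#2 lists are longer, it turned to -2.47.

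H3K27ac was then placed against HNRNPU binding in untransfected cells. A total of 17226 HNRNPU sites were found in both HNRNPU replicates. A strong H3K27ac summit lay within 500 bp of 35.3% and 33.6% of them with shHNRNPU#1 and of 41.1% and 39.6% with shHNRNPU#2. The groups did not overlap, and the difference was 5.90 percentage points (34.4% ± 1.23 against 40.3% ± 1.05, SD, n = 2 each, two-sided exact permutation p = 0.333). It was nearly the same at the 7252 HNRNPU sites at gene ends (5.96 points, 38.9% against 44.9%) and at the 9974 sites away from them (5.85 points, 31.2% against 37.0%). With the deposited list of HNRNPU intervals for both HNRNPU replicates together in place of these sites, the difference was 2.86 points. It was 3.80 points with the 10000 strongest H3K27ac summits and 17.5 over all deposited ones.

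Few sites separated the hairpins. Strong summits of the 4 libraries joined at 250 bp gave 42714 sites. Of these, 6181 (14.5%) were in all 4 lists and 23068 (54.0%) in 1 list alone, which is 5850, 6519, 5530 and 5169 for the 4 libraries. Both lists of shHNRNPU#1 and neither of shHNRNPU#2 held 1500 sites (3.51% of all), named the shHNRNPU#1 side. The reverse held for 1948 sites (4.56%), the shHNRNPU#2 side. Each single list alone thus held more sites than both sides together. Exactly 2 lists held 8189 sites (19.2%). The 2 sides are part of these, and the rest were shared by 1 list of each hairpin. Of the sites in at least 1 shHNRNPU#1 list, 67.0% were missing from the other, and the share for shHNRNPU#2 was 61.3%.

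Many separating sites had a weaker peak in the other hairpin. Of the shHNRNPU#1 side, 49.1% had a weaker deposited summit within 250 bp in both shHNRNPU#2 lists, 33.9% in 1 and 17.0% (255 sites) in neither. Of the shHNRNPU#2 side, 15.3% had one in both of the shorter shHNRNPU#1 lists, 38.4% in 1 and 46.3% (901 sites) in neither. The summits that chose the sites were of like rank on the 2 sides, with medians of 11897 and 11317.

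The 2 sides differed in where they lay. Gene starts held 11.1% of the shHNRNPU#1 side and 22.8% of the shHNRNPU#2 side, beside 36.1% of the sites in all 4 lists. The rest of the gene held 64.9% of the shHNRNPU#1 side and 42.4% of the shHNRNPU#2 side. Sites in 1 list alone differed the same way, with 10.2% at gene starts for shHNRNPU#1 and 14.3% for shHNRNPU#2. An HNRNPU site lay within 500 bp of 13.0% of the shHNRNPU#1 side, 32.2% of the shHNRNPU#2 side and 55.1% of the sites in all 4 lists. For sites in 1 list alone it was 9.78% with shHNRNPU#1 and 16.8% with shHNRNPU#2. Without shHNRNPU#2 replicate 1 the difference between sides turned to -0.15 points at gene starts and -0.40 points at HNRNPU sites. Over all deposited summits it was -0.58 and 3.58 points.

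H3K4me1, measured in libraries that the choice of sites did not use, followed the same order. Within 500 bp, 12.5%, 13.5%, 11.9% and 11.4% of the shHNRNPU#1 side had a strong H3K4me1 summit in the 4 H3K4me1 libraries. On the shHNRNPU#2 side the shares were 32.0%, 32.5%, 34.5% and 35.5%, and at sites in all 4 lists 32.9%, 34.0%, 33.9% and 35.7%. Sites of 1 list alone had the same order, with 8.49% to 9.54% for shHNRNPU#1 and 17.1% to 18.6% for shHNRNPU#2. In the libraries of either hairpin the shares at the shHNRNPU#2 side lay close to those at sites held by all lists. The excess of the shHNRNPU#2 side was 19.6 and 19.1 percentage points in the shHNRNPU#1 libraries and 22.6 and 24.1 in the shHNRNPU#2 libraries, a difference of 4.02 points between the groups, which did not overlap (two-sided exact permutation p = 0.333). This difference was 2.41 without H3K27ac shHNRNPU#2 replicate 1, 2.55 with the 40000 strongest H3K27ac summits and 1.39 with all of them. Where H3K4me1 had a summit in all its 4 libraries, its median score difference, shHNRNPU#2 minus shHNRNPU#1, was -0.09 at 611 sites of the shHNRNPU#1 side and 0.10 at 1308 sites of the shHNRNPU#2 side. It was 0.05 at the sites in all 4 lists and 0.01 over all 88029 H3K4me1 sites. H3K4me1 was thus higher with shHNRNPU#2 at 43.0% of the first group and 61.7% of the second. This share was 55.4% at the sites in all 4 lists and 50.5% over all H3K4me1 sites.

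The control libraries with a hairpin against luciferase (shLUC) can be set beside these sites only with care, because their titles and the peak names inside their files give opposite antibodies. The strong summits of the 2 libraries titled H3K4me1 overlapped the 4 H3K27ac lists by 46.4% to 55.5%, and those of the 2 titled H3K27ac by 18.2% to 25.8%. With the 4 H3K4me1 lists of the hairpins the overlap was 20.9% to 24.3% for those titled H3K4me1 and 68.2% to 73.5% for those titled H3K27ac. In overlap, both pairs thus lay closer to the hairpin lists of the antibody in their inner peak names. In the 2 shLUC libraries whose names inside read H3K27ac and whose titles read H3K4me1, a strong summit lay at 31.3% and 32.1% of the shHNRNPU#1 side and at 39.7% and 47.5% of the shHNRNPU#2 side. At the sites in all 4 lists the shares were 85.6% and 89.0%, and at sites of 1 list alone 13.8% and 13.6% for shHNRNPU#1 and 17.8% and 19.7% for shHNRNPU#2. In the 2 libraries titled H3K27ac, the reading by title, the shares were 9.60% and 10.5% of the shHNRNPU#1 side, 32.0% and 34.0% of the shHNRNPU#2 side and 31.3% and 32.6% of the sites in all 4 lists. The shHNRNPU#2 side had the higher share under either reading, while its share relative to the sites in all 4 lists depended on the reading.

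**Figure D3:**
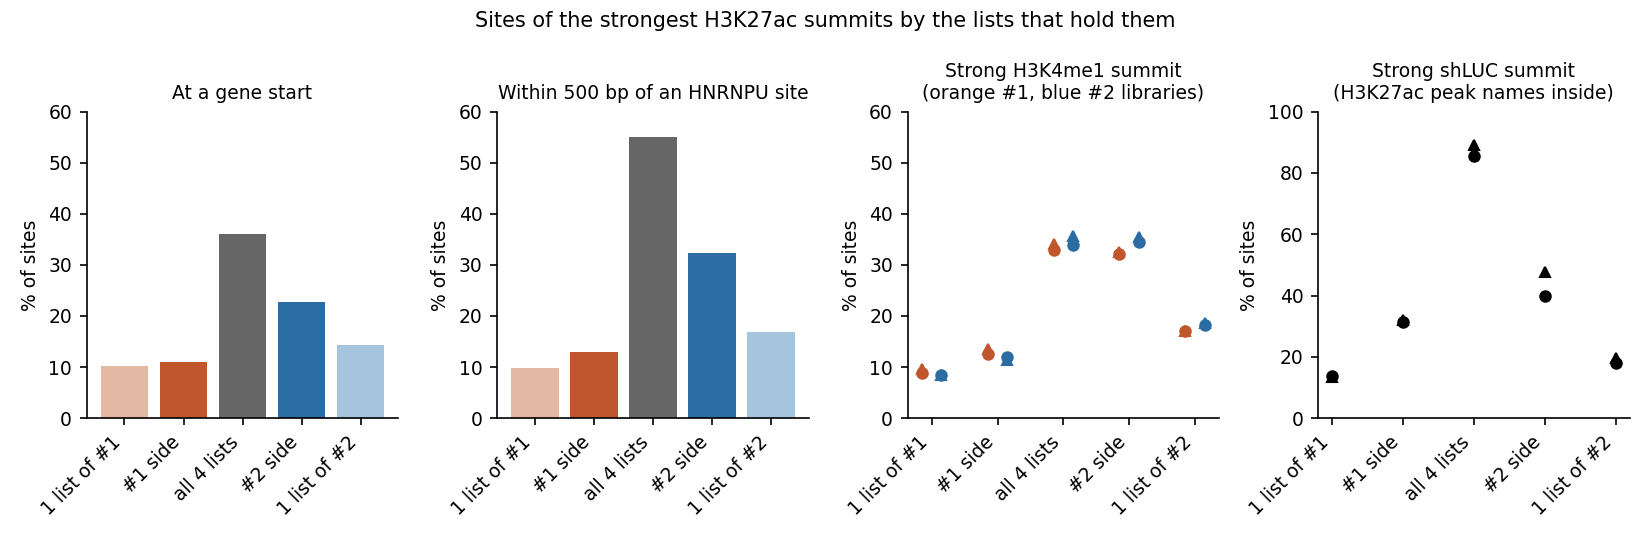
Bars and points give the percentage of sites at a gene start, near an HNRNPU site, with a strong H3K4me1 summit (1 point per library) and with a strong summit in the shLUC libraries that carry H3K27ac peak names, for 5 classes of sites by the lists that hold them. The shHNRNPU#1 side lies near the sites of 1 list alone in the first 3 panels (11.1% and 10.2% at gene starts), while the shHNRNPU#2 side reaches the sites of all 4 lists only for H3K4me1.

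The strongest separating sites were often the same gene start with the summit in another place. By rank, the 5 leading gene-start sites of the shHNRNPU#1 side were at HNRNPK and RMI1, RBPMS, CCNG1, CEPT1 and DRAM2, and ZNF738. Those of the shHNRNPU#2 side were at ZNF738, LIN28B, CEPT1 and DRAM2, HNRNPK and RMI1, and CCNG1. The starts of HNRNPK, an hnRNP protein that binds C-rich RNA, CCNG1, a cyclin induced by p53, CEPT1, an enzyme of phospholipid synthesis, and ZNF738 thus led both sides. At CCNG1, whose upstream sequence is printed above, the summits lay 367 and 362 bases after the listed start with shHNRNPU#1 (ranks 1849 and 190) and 95 and 89 bases after it with shHNRNPU#2 (ranks 759 and 1267). At HNRNPK they lay 305 and 284 bases into the gene with shHNRNPU#1 (ranks 550 and 560), and with shHNRNPU#2 112 bases before the start and 13 bases after it (ranks 1023 and 494). That replicates lay closer together than hairpins at both starts follows from how separating sites were chosen. Such pairs were uncommon overall: a site of the other side lay within 1000 bp of 58 of the 1500 shHNRNPU#1-side sites and 59 of the 1948 shHNRNPU#2-side sites, or 3.87% and 3.03%. Among sites within 1000 bp of a listed start it was 28 of 135 and 27 of 369.

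LIN28B, which codes for an RNA-binding protein that blocks maturation of let-7 microRNAs, had a site on the shHNRNPU#2 side with no counterpart on the other. With shHNRNPU#2 a summit lay 855 and 856 bases before the listed start inside the longer gene, at chromosome 6 position 104956251 (scores 25.1 and 31.4, ranks 813 and 549). No shHNRNPU#1 list had a summit within 250 bp of it, and none had a strong one within 500 bp. The shHNRNPU#1 summits at this start lay 544 and 515 bases after it, at ranks 9983 and 9372. Within 1000 bp of any listed LIN28B start, the shLUC lists with H3K27ac names had their highest summit at ranks 3021 and 1066. Its position was not compared with the shHNRNPU#2 site. Both H3K4me1 groups had H3K4me1 at the site, at the 90.5th, 89.3rd, 92.4th and 94.3rd percentile of their lists.

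Away from gene starts, the leading shHNRNPU#1-side site was on chromosome 6 at 121851241 (scores 24.4 and 21.8, ranks 567 and 371), between genes, with strong H3K4me1 at the 99.7th to 99.9th percentile in all 4 H3K4me1 libraries. The next lay in IFT74, a gene of ciliary transport, on chromosome 9 at 26976534 (ranks 739 and 864). Neither had a strong shHNRNPU#2 summit within 500 bp. The leading shHNRNPU#2-side site was between genes on chromosome 18 at 12087669 (scores 35.5 and 31.4, ranks 245 and 550), with no strong shHNRNPU#1 summit within 500 bp and no H3K4me1 summit in any library. A further one lay in CA10 on chromosome 17 at 51764545 (ranks 1036 and 479), again with no strong shHNRNPU#1 summit within 500 bp and with H3K4me1 at the 94.6th to 96.7th percentile.

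At sites that every list held, the scores of the hairpins were compared as log2 values brought to one distribution by quantile normalisation, and 1 unit on this scale is a 2-fold change of the score. Of 15944 sites with a deposited summit in all 4 lists, limma called 1 (0.00627%) higher with shHNRNPU#2 and 0 lower at an adjusted p under 0.05. At an unadjusted p under 0.05 there were 644 higher (4.04%) and 576 lower (3.61%), or 7.65% of the sites. The scores of a site differed about as much between replicates as between hairpins: the SD of the difference was 0.69 for the shHNRNPU#1 replicates, 0.59 for the shHNRNPU#2 replicates and 0.65 to 0.70 for the pairs of different hairpins. Across these sites, which share their libraries, Pearson's r of the scores was 0.63 and 0.73 within hairpins and 0.62 to 0.67 between them. The single called site lay between genes on chromosome 18 at 77421756. Its scores were 7.98 and 5.77 with shHNRNPU#1 and 28.0 and 40.0 with shHNRNPU#2 (ranks 10800, 13525, 564 and 244), a normalised difference of 1.89 ± 0.38 (SE, adjusted p = 0.0482 by limma). With cyclic loess, or without either shHNRNPU#2 replicate, 0 sites were called. Without shHNRNPU#1 replicate 1 there were 35 higher and 6 lower, and without replicate 2 there were 3 higher and 0 lower.

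The sites next in line did not pass. A site in FRMD6, a gene of the Hippo pathway, on chromosome 14 at 51651552 had a difference of 1.56 ± 0.35. A site in RBPJ, which codes for the DNA-binding partner of Notch, on chromosome 4 at 26406745 had ranks of 119 and 296 with shHNRNPU#1 and 3857 and 4899 with shHNRNPU#2, a difference of -1.48 ± 0.33. Both had an adjusted p of 0.0674 by limma.

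Of 5300 genes with a summit at the start in all 4 lists, limma called 2 (0.0377%) higher with shHNRNPU#2 and 0 lower. At an unadjusted p under 0.05 there were 218 higher (4.11%) and 188 lower (3.55%). The values of the hairpins did not overlap at 933 genes in the higher direction (17.6%) and 979 in the lower (18.5%), so that a lack of overlap alone was common. The median difference over all genes was -0.01, and the 5th and 95th percentiles were -0.75 and 0.75.

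RIC1, a subunit of the exchange factor that activates RAB6 at the Golgi, had scores of 4.66 and 2.60 with shHNRNPU#1 and 19.4 and 22.5 with shHNRNPU#2. These were ranks 31237 and 38856 against 1782 and 1558, so that its start was weak in both shHNRNPU#1 lists and strong in both shHNRNPU#2 lists. The normalised difference was 2.14 ± 0.45 (SE, n = 2 each), with an adjusted p of 0.0140 by limma. In 3 of the libraries the summit lay 263 to 268 bases before the start, just upstream of the printed sequence, and in shHNRNPU#1 replicate 2 it lay 44 bases after it. The shLUC lists with H3K27ac names had their highest summit within 1000 bp of this start at ranks 5983 and 2886. RIC1 lies on chromosome 9 from 5629107 to 5778633.

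ATP6V1G1, a subunit of the proton pump that acidifies lysosomes, had scores of 26.3 and 12.9 with shHNRNPU#1 and 63.4 and 52.2 with shHNRNPU#2. Its start was strong in every library, at ranks 443, 1852, 38 and 102, and the groups did not overlap. The normalised difference was 1.19 ± 0.27 (SE, n = 2 each, adjusted p = 0.0278 by limma). All 4 summits lay 141 to 190 bases before the start, inside the printed sequence. H3K4me1 differed by 0.08 there (adjusted p = 0.970 by limma). Both gene calls were lost under median centring, cyclic loess and in every fit that left out 1 library, where no gene passed.

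Among the genes of smallest p that did not pass, 8 further ones had higher scores with shHNRNPU#2 in both replicates, with adjusted p-values of 0.103 to 0.149. EIF2AK4, the kinase GCN2 that senses amino acid shortage, had ranks of 47374, 39434, 2353 and 16967 (difference 1.73 ± 0.47). RNF138, a ubiquitin ligase of DNA repair, had ranks of 21310, 18460, 598 and 2758 (difference 1.54 ± 0.41). LIN28B had a difference of 1.38 ± 0.37, with the summits on opposite sides of its start as described above. Within 500 bp, which leaves out these summits of both hairpins and compares other ones, it was 0.18 (adjusted p = 0.966 by limma). COQ6, an enzyme of coenzyme Q synthesis, and its divergent neighbour FAM161B shared 1 summit at the same base in all 4 libraries, at ranks 4173, 1976, 251 and 214 (difference 1.16 ± 0.31). RBM43, FHIP1A and CFAP418 had differences of 1.45, 1.55 and 1.38.

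In the other direction 10 genes from 6 start regions were named, all with an adjusted p of 0.103. RANBP1, which assists GTP hydrolysis by Ran in nuclear transport, had ranks of 3315 and 1744 with shHNRNPU#1 and 35748 and 28849 with shHNRNPU#2 (difference -1.69 ± 0.44). TAF8, a subunit of TFIID, had ranks of 4282, 2114, 45896 and 27242 (difference -1.65 ± 0.45). The shared start of RAD17, a clamp loader of the DNA damage checkpoint, AK6 and TAF9 was among the strongest in every library, at ranks 34, 29, 279 and 162 (difference -0.85 ± 0.23). The shared start of SUPT7L, a subunit of the SAGA family of acetyltransferase complexes, and SLC4A1AP had ranks of 1442, 2950, 40511 and 11956 (difference -1.53 ± 0.43). WDR26 and CNIH3, which also share a start region, differed by -1.45 ± 0.40. INPP5F, an inositol phosphatase, had a difference of -1.69 ± 0.42. Its shHNRNPU#1 summits lay 814 bases before a listed start that had no shHNRNPU#2 summit within 1000 bp. The shHNRNPU#2 scores came from the other of its 2 listed starts, so unlike places were compared. The INPP5F difference was -0.23 within 2000 bp and 0.15 when either end of the gene was taken in place of its listed starts. In H3K4me1 none of the 13 named genes measured there passed limma, and 6 of them had a difference of the same sign as in H3K27ac.

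**Figure D4:**
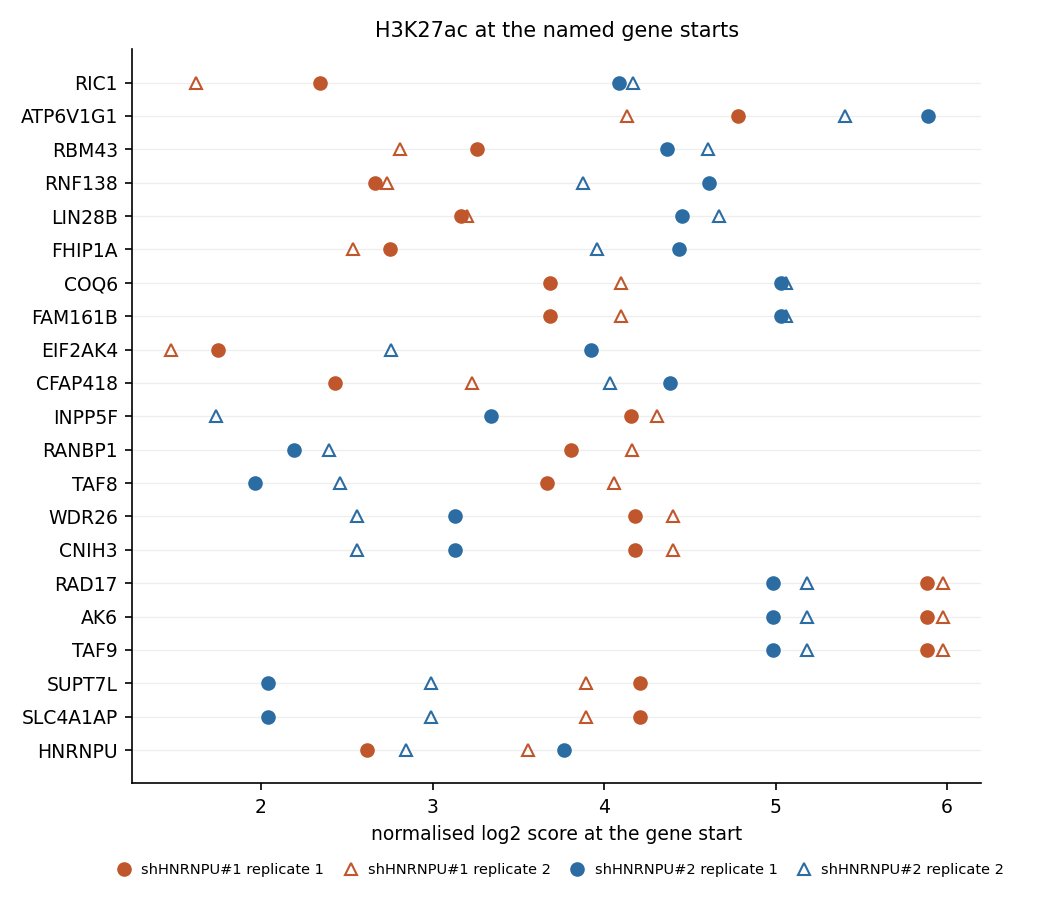
Each row is a named gene, with 1 point per H3K27ac library for the normalised log2 score at its start, coloured by hairpin, filled for replicate 1 and open for replicate 2. RIC1 and ATP6V1G1 passed the test, the other 18 genes above HNRNPU were named as those of smallest p without overlap, and at HNRNPU the hairpins overlap.

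The hairpins also differed in the number of gene starts with a strong summit. Of 20037 protein-coding genes, 7421 had a strong summit at the start in at least 1 list and 3027 in all 4. Both shHNRNPU#1 lists and neither shHNRNPU#2 list had one at 136 genes (0.679%), and the reverse held for 409 (2.04%). The lists placed strong summits at 4857, 4646, 5527 and 5251 genes. Counting every deposited summit, 53 genes were marked only with shHNRNPU#1 and 1148 only with shHNRNPU#2, beside lists of unequal length.

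At the starts of POU5F1, the central transcription factor of pluripotency, H3K27ac was strong in both shHNRNPU#1 lists (ranks 11963 and 14589), weak in shHNRNPU#2 replicate 1 (rank 35085) and without a summit in replicate 2. LMNA, which codes for lamins A and C, had ranks of 12118 and 7866 against 48222 and 31294. RPL3, RPL7A and RPLP2, proteins of the ribosome, and BRD1, a subunit of histone acetyltransferase complexes, had the same pattern, strong in both shHNRNPU#1 lists and weaker in both others. SPRED1, an inhibitor of RAS signalling, had the opposite pattern, with ranks of 18720 and 15309 in the shHNRNPU#2 lists and weaker summits with shHNRNPU#1, at ranks 32100 and 30496.

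No gene of the pathway and cell type lists passed the test. Of 16 lists of pathways and cell types, 14 had a gene with a summit in all 4 lists, and limma called none of their 189 tested genes in either direction, with 3 higher and 6 lower at an unadjusted p under 0.05 (4.76%). Core pluripotency genes ranged from -0.87 at TRIM71 to 1.38 at LIN28B (0.18 within 500 bp), with a median of -0.02 over 7 of 18 genes, where the median over all tested genes was -0.01. Their hairpin values did not overlap at 1 gene in the higher direction (14.3%) and 3 in the lower (42.9%), beside 17.6% and 18.5% of all genes. Genes of hnRNP and splicing factors, the family of HNRNPU, had a median of 0.04 over 33 of 38 genes, from -0.72 at HNRNPA2B1 to 0.57 at HNRNPDL. At HNRNPA2B1 the replicates were far apart, at ranks 17465, 4038, 3601 and 80275.

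Genes that write, erase or read histone acetylation had a median of 0.01 over 17 of 33 genes. BRD1 was lowest at -0.93 and KAT5, an acetyltransferase of the NuA4 complex, highest at 0.53. Genes of nuclear architecture had a median of 0.07 over 20 of 30 genes, with LMNA at -1.05 and CTCF, which holds the base of chromatin loops, at 0.58. The p53 targets had a median of -0.04 over 13 of 22 genes and were led by MDM2, the ubiquitin ligase of p53, at -0.68. The interferon response list had a median of -0.02 over 3 of 22 genes, and the small RNA pathway -0.11 over 7 of 13.

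The 78 cytosolic ribosomal protein genes formed the largest list, with 67 genes tested. Their median was -0.13, with 13 genes without overlap in the higher direction (19.4%) and 16 in the lower (23.9%), against 17.6% and 18.5% of all genes. RPL3 had the lowest difference (-1.29 ± 0.46, adjusted p = 0.351 by limma) and RPS12 the highest (0.92 ± 0.45, adjusted p = 0.620). RPL36A was at ranks 405, 222, 4170 and 1333. Of the developmental lists, the mesendoderm and neural ones had no gene with a summit in all 4 lists, and 11 of 15 and 14 of 17 of their genes had none in any. The 4 tested genes of the WNT, Nodal, BMP and FGF target list, led by SPRED1, had a median of 0.38 with none called.

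**Figure D5:**
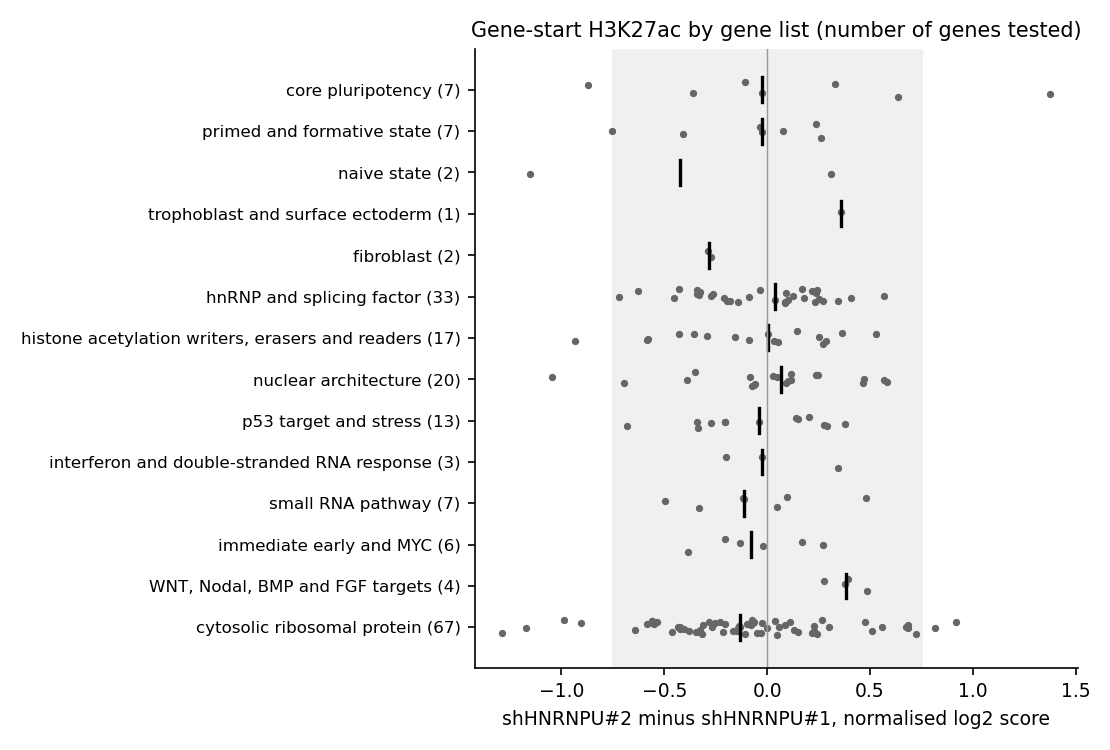
Each point is a gene with a summit in all 4 lists, placed by its normalised log2 score difference (shHNRNPU#2 minus shHNRNPU#1) in rows by gene list, with the list's median as a black line and the 5th to 95th percentile of all 5300 genes in grey. The medians of the lists with 10 or more genes lie between -0.13 and 0.07, and LIN28B stands furthest to the right, at 1.38 (0.18 within 500 bp).

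The separating sites were not spread alike over the chromosomes. The shHNRNPU#1 side took its largest shares of all sites on chromosomes 22 (5.21%, 58 of 1113), 19 (4.76%), 16 (4.65%) and 17 (4.56%). The shHNRNPU#2 side took its largest shares among the autosomes on chromosomes 18 (6.60%, 63 of 954), 15 (6.40%) and 13 (6.02%), and its smallest on chromosome 22 (2.88%). The scores at sites in all lists had their lowest medians among the autosomes on chromosomes 22 (-0.11), 16 (-0.10) and 19 (-0.07) and their highest on chromosome 18 (0.05). These are descriptions, and the base composition and gene density of the chromosomes move with them. Their part in the result was not tested.

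Promoters of the 2 sides differed in composition. Over 300 bases from 250 before to 50 after a listed start, the median GC content was 62.3% at 149 starts that were strong only with shHNRNPU#1, 67.2% at 410 strong only with shHNRNPU#2, 64.3% at 3297 strong in all lists and 62.3% at all 22078. The median number of CG dinucleotides was 20, 27, 26 and 21. The ETS motif (CCGGAAG, both strands) was found in 21.5% of the shHNRNPU#1 starts, 13.7% of the shHNRNPU#2 starts and 23.6% of those strong in all lists, against 12.8% of all promoters. The YY1 motif (AAGATGGC) was in 2.01%, 3.66% and 8.34%, against 3.54% of all. The GC box was in 65.1%, 73.2% and 68.5%, against 56.3% of all.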

How the data were processed

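CUT&Tag was performed by the authors. Per the labels, the submitters' processing notes name cutadapt, Bowtie2, SAMtools, MACS2 and deepTools and the build hg38, with no versions. The lists have 1 deposited summit per peak with a score, read as −log10 of a p-value or q-value, since the lowest was 2.00 (a threshold of 0.01). The score counts within its own list. The listed paper describes mouse cells and was not used as a source of methods. Coordinates are hg38, counted from 1. Groups came from the sample titles. Nothing states that replicates were separate cultures, so p-values measure the spread between libraries, which may be technical.

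Listed starts covered 15743 of 20037 protein-coding genes. Scores were tested with limma 3.58.1 (R 4.3.3) on quantile-normalised log2 values with a variance trend, after a check on simulated data. Benjamini-Hochberg adjustment was over all sites or genes. The SE and p of limma are moderated, and draw mostly on the pooled spread of sites or genes of like score. Without the variance trend the adjusted p by limma was 0.125 at RIC1 and 0.482 at ATP6V1G1. Single values had exact permutation tests. Named genes were HNRNPU, up to 10 per direction (called, then smallest p, without overlap), the 5 gene-start and 3 distal separating sites of highest rank per side, also among those with no deposited summit in the other hairpin, up to 4 of each list by size, and the cell type markers, from which a part is printed. Members, lists and alternatives were chosen with earlier results of these data known. A deposited list of HNRNPU intervals, with a score of 0 throughout, gave positions for 1 alternative. Lists of the POLIIS2P antibody were not used.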

Additional observations from a re-analysis of the deposited data

How the results depend on the processing

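The differences in list length, in the share of HNRNPU sites with H3K27ac and in H3K4me1 at separating sites kept their direction under each alternative tried, and ranged from 0.63 to 1.08 (log2), from 2.86 to 17.5 points and from 1.39 to 5.56 points. Of 290 alternative values of the 21 named genes, 286 kept their direction. LIN28B kept its direction but was 0.18 within 500 bp, where other summits were compared. The exceptions were INPP5F at either gene end (0.15) and HNRNPU within 2000 bp (-0.37) and without replicate 1 of either hairpin (-0.24 to 0.70 with 1 library left out). The gene-start share reversed over all deposited summits (-2.47 points), and so did its difference between the sides (-0.58). Without shHNRNPU#2 replicate 1 the overlap difference, the gene-start contrast and the HNRNPU contrast of the sides reversed. With 1 library left out they ranged from -0.90 to 7.15, from -0.15 to 15.7 and from -0.40 to 26.0 points. The shHNRNPU#1 and shHNRNPU#2 sides held 771 and 979 sites with 10000 summits per list, 2975 and 3840 with 40000, and 2604 to 8121 and 3298 to 7553 with 1 library left out. With all summits the shHNRNPU#2 side held 12109.

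Sites called higher were 0 with the logit of the percentile, cyclic loess, absent values at the list's lowest score, no variance trend and sharing within 100 bp, 2 within 500 bp, and 0 to 35 with 1 library left out. Sites called lower were 0 to 6 with 1 library left out. Most came without shHNRNPU#1 replicate 1, with 41 calls in all. Genes called higher were 0 under median centring, the logit, cyclic loess, absent values and no trend, 1 within 500 bp, and 0 to 0 with 1 library left out. At either gene end 1 gene was called lower. The logit of the percentile moved the median difference to 0.82 over sites and 1.12 over genes, since the percentile is taken within lists of unequal length. The fit with the replicate number as a block called 7 sites higher and 4 lower. It called 2 genes higher and 0 lower, as the main fit did. Normalised scores of same-numbered libraries did not deviate together (r = 0.003 over 15944 sites and -0.0005 over 5300 genes). Normalisation removes shifts of a whole library, so this cannot tell whether same-numbered libraries were handled together. The cause of these changes was not tested. Read depth is unknown, and weak summits of the shorter lists set what could be compared.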
